A study of Mus musculus with 8 samples.

Results

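The Toll-like receptor genes Tlr1, Tlr2, Tlr4, Tlr6, Tlr7, Tlr8, Tlr9, Tlr12 and Tlr13 and the chaperone gene Unc93b1 were followed in RNA from CD11c-positive splenocytes. They were chosen by name as a gene family, with earlier results of these data known, and all 10 were in the table of 13786 protein-coding genes. The cells came from 7-week-old female mice of the lupus-prone strain B6.SLE123 (n = 4) and of the control strain C57BL/6 (n = 4), none of them treated. B6.SLE123 mice are C57BL/6 mice that carry the Sle1, Sle2 and Sle3 susceptibility intervals of a lupus-prone strain, so a difference between the groups is a difference between strains, not an effect of 1 gene. The labels call the cells dendritic cells, but CD11c is also carried by some macrophages and other leukocytes, and the markers of these are given beside the results.

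Toll-like receptors recognize conserved microbial molecules through leucine-rich repeats and signal through a TIR domain in the cytosol. Tlr1, Tlr2, Tlr4 and Tlr6 act mainly at the cell surface on lipopeptides and lipopolysaccharide. Tlr7, Tlr8, Tlr9, Tlr12 and Tlr13 act in endosomes, where several of them detect nucleic acids. Unc93b1 is the transmembrane protein that carries the endosomal receptors out of the endoplasmic reticulum. In lupus these receptors have been studied because Tlr7 and Tlr9 can respond to RNA and DNA released by the host's own cells.

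In B6.SLE123 mice, transcripts of Tlr4 and Tlr8 were 3.41-fold and 3.70-fold lower than in C57BL/6 mice. Tlr7 was 1.68-fold lower, Tlr2, Unc93b1, Tlr6 and Tlr1 were between 1.18-fold and 1.32-fold lower, and Tlr9 was 1.15-fold higher. Tlr12 and Tlr13 did not pass the test. At an adjusted p below 0.05 (quasi-likelihood test of edgeR), 8 of the 10 were called, 7 lower and 1 higher, against a background of 53.4% of all genes called, 26.6% lower and 26.7% higher. For 7 of the 10, no B6.SLE123 mouse fell within the range of the C57BL/6 mice, against 48.9% of all genes. A fall of more than 2-fold with an adjusted p below 0.05 was found for 2 of them, Tlr4 and Tlr8, against 8.29% of all genes, and a rise of that size for 0, against 2.76% of all genes. The median log2 fold change of the 10 genes was -0.32, beside -0.0019 over all genes tested. Levels are given as CPM, read counts relative to the size of each library, scaled by TMM, a normalization for library composition, and log2 fold changes are B6.SLE123 over C57BL/6. In RNA from a whole cell preparation, fewer cells of a type cannot be told apart from less RNA per cell.

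**Figure D1:**
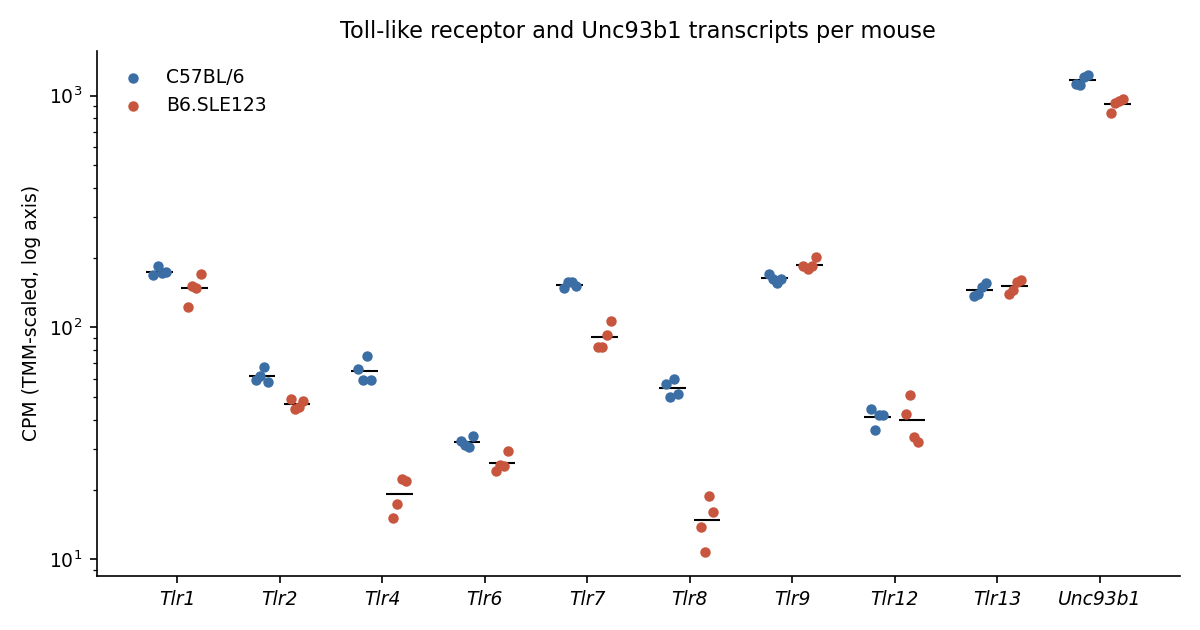
Transcript level of each gene in CPM (log axis) in every mouse, with C57BL/6 in blue, B6.SLE123 in red and a bar at the mean of 4 mice. The groups stand far apart for Tlr4 and Tlr8, lie close together without overlap for Tlr9, and overlap for Tlr1, Tlr12 and Tlr13.

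Tlr7 and Tlr8 are neighbours on the X chromosome, both on its minus strand, Tlr8 from 167242696 to 167264329 and Tlr7 from 167304929 to 167330558 (mm10). Tlr9 lies on the plus strand of chromosome 9, from 106222598 to 106226883. The 250 bases before the RefSeq start of Tlr8, which fell most, and of Tlr9, the gene that rose, are printed 5′ to 3′ from GRCm38.p6, the assembly of mm10. Capitals mark GAGGAA, a sequence that the transcription factor PU.1 can bind, or its reverse complement TTCCTC. PU.1, a factor of myeloid cells, was shown because the study examined its binding at complement genes. The study's DNA probe for PU.1 at these genes holds neither GAGGAA nor TTCCTC, so other forms of the site are not marked.
Tlr8, minus strand, chrX:167264330-167264579: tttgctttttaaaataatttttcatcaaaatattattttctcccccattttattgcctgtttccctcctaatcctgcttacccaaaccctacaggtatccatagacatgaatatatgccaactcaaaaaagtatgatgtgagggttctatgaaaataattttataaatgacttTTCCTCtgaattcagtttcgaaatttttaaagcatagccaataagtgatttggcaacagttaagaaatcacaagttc
Tlr9, plus strand, chr9:106222348-106222597: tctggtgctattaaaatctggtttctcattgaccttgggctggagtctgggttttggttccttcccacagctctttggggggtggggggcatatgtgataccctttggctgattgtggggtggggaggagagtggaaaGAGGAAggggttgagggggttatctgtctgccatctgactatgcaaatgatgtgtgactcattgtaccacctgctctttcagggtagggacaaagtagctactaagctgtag
Each window holds GAGGAA or TTCCTC once. RefSeq windows were matched for 7 of the 10 genes, 9 windows in all, and 4 of the 9 hold GAGGAA on either strand, those of Tlr8, Tlr9, Tlr13 and 1 of the windows of Tlr1. Among all 32851 windows of 250 bases, 23.3% hold it. The longer form GAGGAAGT, which contains GAGGAA, was found in 1 window, of Tlr1, and in 2.44% of all windows. Tlr4, Tlr7 and Unc93b1 were not matched. A match of these letters describes the window and is not evidence of binding.

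Tlr1 and Tlr6 share stretches of sequence and lie next to each other on chromosome 5, both on the minus strand. Tlr1 runs from 64924679 to 64933563 and Tlr6 from 64952031 to 64960097. Of 2976 windows of 50 bases in the longest Tlr1 transcript of GENCODE M21, 454 (15.3%) also occur in a transcript of another gene, Tlr6. For Tlr6, 456 of 3628 windows (12.6%) are shared, with Tlr1 and Ctsq. The other 8 genes share 0 windows with any other gene. The longest run that is identical in Tlr1 and Tlr6, 229 bases, is printed because reads from it cannot be assigned to either gene, so the counts of both are uncertain to that extent.
Tlr1, minus strand, chr5:64925537-64925765, and Tlr6, minus strand, chr5:64953828-64954056: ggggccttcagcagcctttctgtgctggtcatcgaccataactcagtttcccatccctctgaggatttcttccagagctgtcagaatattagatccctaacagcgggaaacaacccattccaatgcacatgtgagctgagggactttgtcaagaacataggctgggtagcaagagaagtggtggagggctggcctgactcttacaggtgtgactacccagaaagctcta
None of the 10 genes overlaps another annotated gene on either strand, so strand in counting does not bear on their values. All 10 have the same coordinates in the table and in GENCODE M21.

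Tlr4 and Tlr8 showed the largest differences. Tlr4 on chromosome 4, from 66827584 to 66930284, encodes the receptor for lipopolysaccharide. Its level was 66.4, 59.3, 75.3 and 59.1 CPM in the C57BL/6 mice and 15.03, 17.4, 22.3 and 21.8 CPM in the B6.SLE123 mice. The lowest C57BL/6 mouse was above every B6.SLE123 mouse by a wide margin. Tlr4 thus had a log2 fold change of -1.77 (± 0.12 as standard error, n = 4 against 4, adjusted p = 1.15e-06, edgeR's quasi-likelihood test).

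Tlr8, a receptor of endosomes related to Tlr7, was at 57.1, 50.1, 59.7 and 51.7 CPM in C57BL/6 mice and at 13.7, 10.8, 18.7 and 16.02 CPM in B6.SLE123 mice. These groups also stood apart, and mice differed more from each other in B6.SLE123, with a coefficient of variation of 22.7% against 8.23% in C57BL/6. For Tlr8 the log2 fold change was -1.89 (± 0.14 as standard error, n = 4 against 4, adjusted p = 1.42e-06, edgeR's quasi-likelihood test). Even the smallest count of the 10 genes in any mouse, 401 reads of Tlr8, was well above the range in which counting error decides a difference of this size.

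Tlr7, the receptor for single-stranded RNA, was at 147.4, 156.8, 156.4 and 150.4 CPM in C57BL/6 mice and at 82.0, 82.8, 93.1 and 106.4 CPM in B6.SLE123 mice. The groups did not overlap, and the spread was again larger in B6.SLE123 mice, with a coefficient of variation of 12.5% against 3.02%. Between strains, Tlr7 changed by -0.75 on the log2 scale (± 0.08 as standard error, n = 4 against 4, adjusted p = 1.36e-05, edgeR's quasi-likelihood test). The nearest tested genes on either side of this pair did not fall. Tmsb4x, the next gene before Tlr8, had a log2 fold change of 0.20 (adjusted p = 0.0242) and Prps2, the next after Tlr7, one of 0.24 (adjusted p = 0.000723, same test). Beside Unc93b1, Aldh3b1 did fall, by 0.96 on the log2 scale (adjusted p = 1.40e-06, same test), and Acy3 was not called (adjusted p = 0.191). Beside Tlr1 and Tlr6, Klf3 and Fam114a1 fell by 0.16 and 0.23 (adjusted p = 0.0102 and 0.0163, same test). Beside Tlr9, Twf2 rose by 0.14 (adjusted p = 0.0258, same test) and Alas1 was not called. Beside Tlr2, Plrg1 was not called and Tmem131l rose by 0.25. Zscan20 beside Tlr12 rose by 0.28, and Phc2 was not called. Atp7a and Pgk1 beside Tlr13 rose by 0.43 and 0.34. The nearest tested genes to Tlr4 lay far from it, Trim32 ending at 65616238 and Cdk5rap2 starting at 70216856. Trim32 was not called (adjusted p = 0.455) and Cdk5rap2 rose by 0.20 (adjusted p = 0.00612, same test).

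Tlr9, the receptor for unmethylated CpG DNA, was the gene that rose. It was at 170.7, 162.0, 156.3 and 162.4 CPM in C57BL/6 mice and at 183.4, 179.5, 183.4 and 200.8 CPM in B6.SLE123 mice. Every B6.SLE123 mouse was above every C57BL/6 mouse, but the step was small. On the log2 scale the difference was 0.20 (± 0.05 as standard error, n = 4 against 4, adjusted p = 0.0045, edgeR's quasi-likelihood test).

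Tlr13, a receptor for bacterial ribosomal RNA on the X chromosome from 106143204 to 106160493, was between 136.4 and 155.1 CPM in C57BL/6 mice and between 140.1 and 160.3 CPM in B6.SLE123 mice. Its groups overlapped. Its log2 fold change was 0.05, with a 95% interval from -0.07 to 0.18 (adjusted p = 0.466, edgeR's quasi-likelihood test). The interval leaves out a change as large as that of Tlr7. Tlr12, a receptor for the protozoan protein profilin on chromosome 4 from 128615443 to 128618619, was between 36.0 and 44.5 CPM in C57BL/6 mice and at 42.2, 51.4, 33.6 and 32.2 CPM in B6.SLE123 mice. The B6.SLE123 mice lay on both sides of the C57BL/6 mice. For Tlr12 the log2 fold change was -0.04, with a wider 95% interval from -0.33 to 0.25 (adjusted p = 0.820, same test).

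Tlr2, which pairs with Tlr1 or Tlr6 to bind lipopeptides, lies on chromosome 3 from 83836272 to 83841767. It was at 59.1, 61.5, 67.6 and 58.5 CPM in C57BL/6 mice and at 49.2, 44.6, 45.3 and 48.3 CPM in B6.SLE123 mice. The groups did not overlap. Tlr2 changed by -0.40 on the log2 scale (± 0.06 as standard error, n = 4 against 4, adjusted p = 0.000157, edgeR's quasi-likelihood test). Its partners fell by a similar or smaller step. Tlr6 was between 30.4 and 34.1 CPM in C57BL/6 mice and between 24.1 and 29.2 CPM in B6.SLE123 mice, a log2 change of -0.30 (± 0.07 as standard error, adjusted p = 0.00294, same edgeR test). Tlr1 was between 167.7 and 183.4 CPM in C57BL/6 mice and at 123.1, 151.1, 148.0 and 170.1 CPM in B6.SLE123 mice. B6.SLE123 replicate 4 lay within the C57BL/6 range, and Tlr1 was thus the single called gene of the 10 whose groups overlapped. It changed by -0.24 on the log2 scale (± 0.08 as standard error, adjusted p = 0.0295, same edgeR test). Leaving out single mice removed this call in 3 of 8 fits, with an adjusted p of 0.0759 without C57BL/6 replicate 2, 0.0528 without C57BL/6 replicate 3 and 0.0520 without B6.SLE123 replicate 3.

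Unc93b1 lies on chromosome 19 from 3935186 to 3949340. It was at 1124.2, 1113.2, 1202.5 and 1232.1 CPM in C57BL/6 mice and at 838.3, 928.9, 951.1 and 964.4 CPM in B6.SLE123 mice. The chaperone was lower in every B6.SLE123 mouse, without overlap. Unc93b1 changed by -0.34 on the log2 scale (± 0.06 as standard error, n = 4 against 4, adjusted p = 0.000405, edgeR's quasi-likelihood test).

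**Figure D2:**
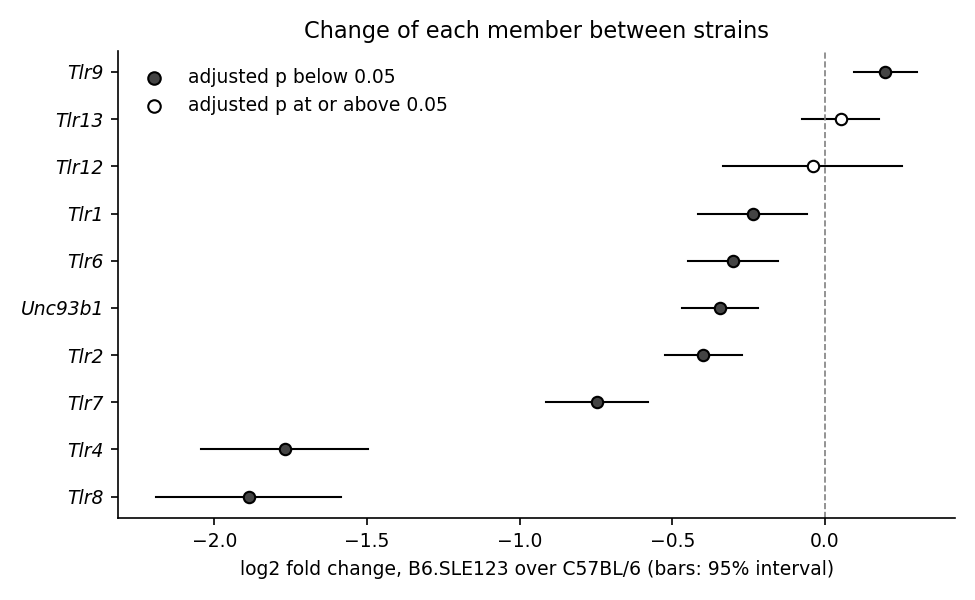
Log2 fold change of each gene, B6.SLE123 over C57BL/6, with its 95% interval from edgeR's fit of 4 mice against 4, and filled points for an adjusted p below 0.05. Tlr8 and Tlr4 lie near -1.89 and -1.77, apart from the other genes, and the intervals of Tlr12 and Tlr13 span 0.

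The order of the genes by level also differed between the strains when CPM were divided by the merged exon length of each gene in kilobases. In C57BL/6 mice the order was Unc93b1 at 385 ± 19.3 CPM per kilobase (SD, n = 4), Tlr1 at 52.1 ± 1.98, Tlr9 at 46.8 ± 1.70, Tlr7 at 37.4 ± 1.13, Tlr13 at 33.7 ± 1.99, Tlr2 at 20.5 ± 1.38, Tlr8 at 15.2 ± 1.25, Tlr12 at 12.9 ± 1.14, Tlr4 at 11.7 ± 1.38 and Tlr6 at 8.60 ± 0.43. The range of Tlr12 across mice overlapped that of Tlr8 above it and that of Tlr4 below it. Tlr8 and Tlr4 did not overlap, with a lowest value of 13.97 for Tlr8 and a highest of 13.56 for Tlr4. In B6.SLE123 mice Tlr9 led the receptors at 53.7 ± 2.74 CPM per kilobase (SD, n = 4), and Tlr8 and Tlr4 had moved to the last places at 4.13 ± 0.94 and 3.44 ± 0.63. Tlr1 and Tlr13 overlapped there, as did Tlr2 and Tlr12 and also Tlr8 and Tlr4. As a share of the sum of the 9 receptors per kilobase, Tlr9 was 19.6% ± 0.91 in C57BL/6 mice and 27.2% ± 0.93 in B6.SLE123 mice (SD, n = 4). Tlr7 went from 15.7% ± 0.42 to 11.2% ± 0.76, Tlr8 from 6.37% ± 0.47 to 2.08% ± 0.45 and Tlr4 from 4.89% ± 0.52 to 1.73% ± 0.25 of that sum. The share of Tlr13 was 14.1% ± 0.76 against 17.7% ± 0.52. The sum itself was between 237 and 243 CPM per kilobase in C57BL/6 mice and between 185 and 214 in B6.SLE123 mice, so a share can be higher where the level is not.

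Ratios between genes within a mouse do not depend on the scaling of the libraries, and 4 of them were compared. The ratio of Tlr7 to Tlr9, the RNA and DNA receptors that both depend on Unc93b1, was 0.864, 0.968, 1.001 and 0.926 in the C57BL/6 mice. It was 0.447, 0.461, 0.508 and 0.530 in the B6.SLE123 mice. Reads of Tlr7 and Tlr9, not divided by gene length, were thus near equal in number in the control strain. In the lupus-prone strain they were at about 1 to 2. Per kilobase, Tlr7 was below Tlr9 in C57BL/6 mice as well, at 37.4 ± 1.13 against 46.8 ± 1.70 CPM (SD, n = 4). B6.SLE123 minus C57BL/6, the log2 ratio differed by -0.95 (p = 0.0286 in an exact permutation test, two-sided, which is the lowest value for 4 mice against 4, adjusted p = 0.0381 over the 4 ratios). Relative to Unc93b1, Tlr7 differed by -0.41 and Tlr9 by 0.54 on the log2 scale, both without overlap (exact two-sided permutation tests, adjusted p = 0.0381 for each). Without C57BL/6 replicate 2 the adjusted p of these 3 ratios was between 0.0571 and 0.0762 (exact permutation tests), and with the replicate number as a block, where 4 pairs cannot go below p = 0.125, it was 0.167. The ratio of Tlr1 to Tlr6 was between 5.11 and 5.87 in C57BL/6 mice and between 5.09 and 5.94 in B6.SLE123 mice, a log2 difference of 0.06 (exact two-sided permutation test, adjusted p = 0.400). The ratios of Tlr1 to Tlr6 overlapped fully between the strains.

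**Figure D3:**
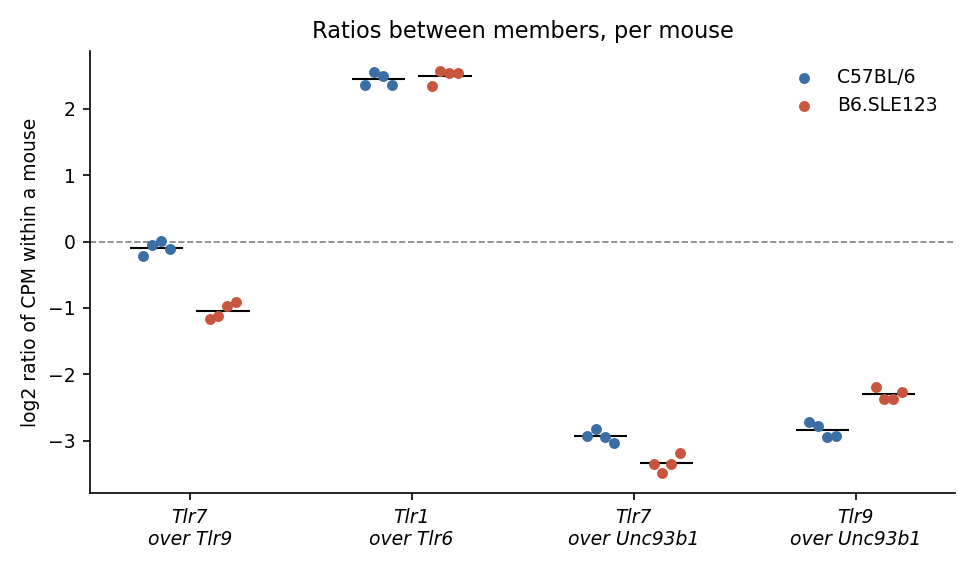
Log2 ratio of CPM, not divided by gene length, between pairs of genes in every mouse, with a bar at the mean of 4 mice per strain. The ratio of Tlr7 to Tlr9 has a mean of -0.09 in C57BL/6 mice and of -1.04 in B6.SLE123 mice, while that of Tlr1 to Tlr6 overlaps.

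The other genes of the pathway were taken from lists written by hand and are given by their role. Of 63 such genes, 37 had an adjusted p below 0.05 (edgeR's quasi-likelihood test), 18 higher and 19 lower, with a median log2 fold change of 0.03. Over all genes tested 53.4% were called, so a share near that in this or any of the lists that follow is not a result about the list, and the lists were not tested against each other. Among 6 accessory proteins of the surface receptors, 5 were called, 3 lower and 2 higher, with a median of -0.58. Cd14, which hands lipopolysaccharide to Tlr4, went from 104 ± 8.80 to 17.8 ± 7.84 CPM (SD, n = 4), a log2 fold change of -2.56 (adjusted p = 1.32e-05, edgeR). Ly96, the MD-2 protein that binds lipopolysaccharide together with Tlr4, went from 10.5 ± 1.04 to 5.24 ± 0.16 CPM (SD, n = 4; adjusted p = 6.72e-06, edgeR). Tlr4, Cd14 and Ly96 transcripts were thus each lower in B6.SLE123 mice. Lbp, the gene of this list that was not called, was near the floor at 0.21 CPM in C57BL/6 and 0.11 CPM in B6.SLE123 mice. Its groups overlapped (adjusted p = 0.129, edgeR). Cd180, a receptor related to Tlr4 that is found on B cells and dendritic cells, rose by 0.25, whereas its partner Ly86 fell by 0.29 on the log2 scale. Cd36, a scavenger receptor that assists Tlr2 and Tlr6, rose by 0.99 on the log2 scale (adjusted p = 2.60e-05, edgeR), in the opposite direction to both receptors.

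Of 10 genes for the machinery that folds and moves the endosomal receptors, 4 were called, 2 higher and 2 lower, with a median of -0.05. Hsp90b1, the endoplasmic reticulum chaperone gp96, was at 471 ± 61.1 CPM in C57BL/6 mice and 439 ± 33.3 CPM in B6.SLE123 mice (SD, n = 4), and its log2 fold change of -0.10 had a 95% interval from -0.29 to 0.10 (adjusted p = 0.367, edgeR). Its cofactor Cnpy3 was at -0.04, with an interval from -0.16 to 0.07. Slc15a4, an endolysosomal transporter needed for Tlr7 and Tlr9 signaling, was at 0.12, with an interval from 0.01 to 0.22 and an adjusted p of 0.0640 in edgeR (0.022 without B6.SLE123 replicate 2). Sdcbp, the syntenin that binds Unc93b1, fell by 0.45 on the log2 scale, and Cnpy4 fell by 0.26, a call that was lost without C57BL/6 replicate 3, C57BL/6 replicate 4 or B6.SLE123 replicate 1 (adjusted p between 0.0508 and 0.064, edgeR). Ap3b1, a subunit of the AP-3 adaptor that routes receptors to lysosome-related compartments, rose by 0.30, and Lrrc59 rose by 0.21.

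The endolysosomal proteases that cleave the nucleic acid receptors had the lowest median of these lists, with 4 of 5 lower and a median log2 fold change of -1.66. Ctsl fell by 1.82, Lgmn by 1.70 and Ctsb by 1.66 on the log2 scale (adjusted p = 5.72e-07, 2.17e-06 and 7.63e-07, edgeR). Ctsb went from 3281 ± 259 to 1036 ± 170 CPM (SD, n = 4). These enzymes are also abundant in macrophages.

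The adaptors and kinases were mostly close to 0, with 10 of 22 called, 5 higher and 5 lower, and a median of 0.06. Myd88, the adaptor shared by all of the receptors studied here, was at 98.5 ± 3.66 CPM in C57BL/6 mice and 102 ± 4.74 CPM in B6.SLE123 mice (SD, n = 4), and its log2 fold change of 0.05 had a 95% interval from -0.05 to 0.15. Traf6 was at 0.08, with an interval from -0.04 to 0.19 (adjusted p = 0.225, and 0.0249 without C57BL/6 replicate 2, edgeR). Irak4 fell by 0.19, Tab1 by 0.36 and Ikbke by 0.38 on the log2 scale. The call of Ikbke was lost without C57BL/6 replicates 1, 2 or 3 or B6.SLE123 replicates 2 or 4 (adjusted p between 0.0544 and 0.0862, edgeR). Ticam1, the TRIF adaptor that acts downstream of Tlr4, rose by 0.42, Traf3 by 0.30 and Ube2n by 0.19. No gene of this list changed by more than 2-fold with an adjusted p below 0.05.

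Of 9 transcription factors, 7 were called, 5 higher and 2 lower, with a median of 0.19. Irf8, which is also in the list of type 1 conventional dendritic cell markers, rose by 0.48 with overlapping groups, Relb by 0.32, Nfkb1 by 0.32 and Irf5, which acts downstream of Myd88, by 0.19 on the log2 scale. Irf3 fell by 0.65 (adjusted p = 1.57e-06, edgeR) and Irf7, the factor for interferon alpha downstream of Tlr7 and Tlr9, fell by 0.44 (adjusted p = 0.0121, edgeR) with overlapping groups. Of 11 genes listed as inhibitors of the pathway, 7 were called, 4 higher and 3 lower, with a median of 0.09. Socs1 rose by 0.60, Peli1, whose place among inhibitors is uncertain, by 0.43 and Tnfaip3, the deubiquitinase A20, by 0.29. Irak3, an inhibitory IRAK family member known from monocytes and macrophages, fell by 1.20, Cd300a by 0.93 and Pik3r1 by 0.12 on the log2 scale. The call of Pik3r1 was lost without C57BL/6 replicates 1, 2 or 3 or B6.SLE123 replicates 1 or 2 (adjusted p between 0.0549 and 0.131, edgeR).

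**Figure D4:**
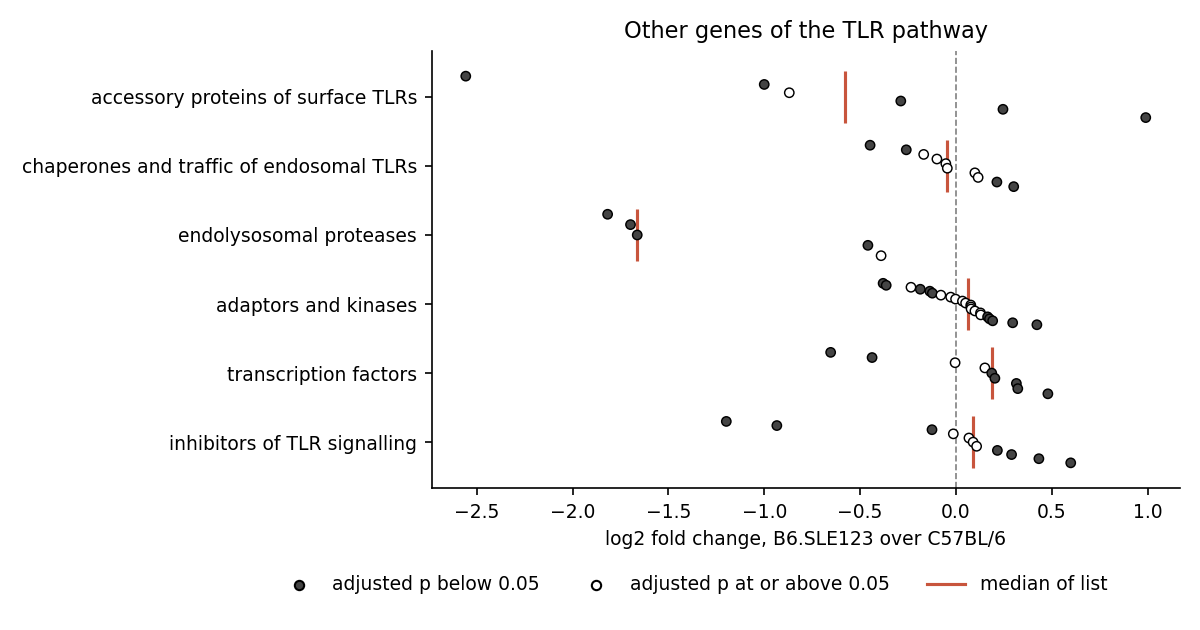
Log2 fold change (B6.SLE123 over C57BL/6) of each other gene of the TLR pathway in 6 lists, filled where the adjusted p was below 0.05, with a red bar at the list's median. The proteases lie farthest to the left, with a median of -1.66, Cd14 lies at -2.56, and most adaptors and kinases lie near 0.

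Markers of several cell types differed between the strains as well, and their counts are likewise to be read against the 53.4% of all genes called. All 7 dendritic cell markers, Itgax and Cd74 among them, were higher in B6.SLE123 mice. Their summed level was between 23296 and 27020 CPM in C57BL/6 mice and between 28846 and 30266 CPM in B6.SLE123 mice. The markers were thus detected in both strains, but the largest part of the sum was Cd74, which is not specific to dendritic cells. All 12 red pulp macrophage markers were lower, with a median log2 fold change of -2.38. The list includes C1qa, C1qb, C1qc and Csf1r, by which the study also described monocyte-related dendritic cells of the spleen. The most abundant, Vcam1, went from 2471 ± 331 to 453 ± 148 CPM (SD, n = 4). Their sum was between 13260 and 17080 CPM in C57BL/6 mice and between 1919 and 3802 CPM in B6.SLE123 mice. All 6 marginal zone macrophage markers were also lower, and their sum went from between 769 and 934 CPM to between 118 and 223 CPM. None of these macrophage markers was at 0 in all mice of a strain. Their part in the lower levels of Tlr4, Tlr8, Tlr7, Cd14 and the proteases was not tested.

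The counts in the lists that follow also stand beside 53.4% of all genes called, 26.6% lower and 26.7% higher. A share near these is not a result about the list. Of 8 type 1 conventional dendritic cell markers, 6 were higher and 1 was lower, and their sum went from between 3438 and 3921 CPM to between 5295 and 6942 CPM. Type 2 conventional dendritic cell markers were lower for 4 of 8, with sums between 2213 and 2412 CPM against 1248 and 1527 CPM, most of it Sirpa, which went from 1784 ± 85.4 to 950.5 ± 101 CPM (SD, n = 4). Plasmacytoid dendritic cells and B cells are known for Tlr7 and Tlr9. Of 9 plasmacytoid markers, 2 were higher and 3 lower, and their sums were between 506 and 541 CPM in C57BL/6 mice and between 424 and 510 CPM in B6.SLE123 mice. Of 10 B cell markers, 1 was higher and 7 were lower, and their sums were between 788 and 893 CPM and between 682 and 805 CPM. Siglech, Pacsin1 and Cd22 were the members of these lists that were called higher, named after their values were seen, with log2 fold changes of 0.45, 0.95 and 0.34. Monocyte markers were lower for 3 of 10 and higher for 1, with sums between 941 and 1010 CPM against 574 and 712 CPM. Neutrophil markers were lower for 2 of 7 and higher for 2, with sums between 82.3 and 90.0 CPM against 26.3 and 39.5 CPM, most of it Csf3r. Plasma cell markers were higher for 2 of 6 and lower for 2, T cell markers higher for 1 of 7 and lower for 1, and NK cell markers lower for 1 of 7. Erythroid markers were lower for 7 of 8, with sums between 85.0 and 272 CPM against 8.67 and 38.6 CPM, and 1 of them was at 0 in every B6.SLE123 mouse. The part of these cell types in the levels of the receptors was not tested.

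**Figure D5:**
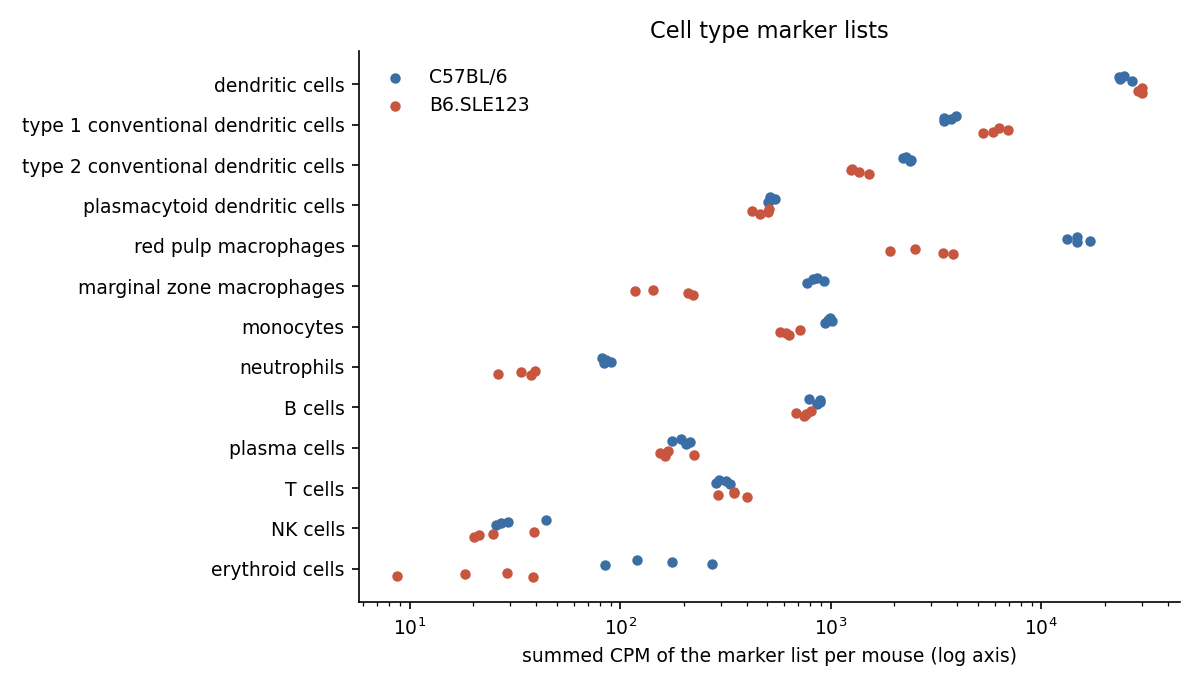
Summed CPM of each marker list in every mouse (log axis), with C57BL/6 in blue and B6.SLE123 in red. The red pulp and marginal zone macrophage lists show the widest gaps between the strains apart from the erythroid list, and the type 1 conventional dendritic cell list is higher in B6.SLE123 mice.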

How the data were processed

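RNA was sequenced from CD11c-positive spleen cells of 8 mice, 4 per strain. Before deposit the authors used cutadapt for trimming, STAR for alignment to mm10 and featureCounts for counting. The annotation release and strand setting are not given in the sources used here. The authors deposited raw counts per gene and mouse, without normalization, which were used here, beside columns of their own DESeq2 comparison, which were not used. Counts summed to between 25563070 and 37367094 per mouse. Strain was taken from the sample titles, since the genotype labels count upward from mouse to mouse. Mice of a strain differed by more than sampling noise (chi-square per degree of freedom between 4.96 and 18.9), and each was kept as 1 replicate. The labels do not say whether cells of each mouse were prepared separately, so p-values measure only the spread between these samples, which may be technical.

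Counts were scaled by TMM and the strains compared with the quasi-likelihood F test of edgeR 4.0.16 across all 13786 genes, with Benjamini-Hochberg adjustment and a threshold of 0.05. Intervals are 95% intervals of that fit. Ratios used log2 CPM with a prior count of 2 and exact two-sided permutation tests. The fit was tested on counts simulated for this comparison of 13786 genes, 200 of them altered. It recovered 93.2% of alterations by at least 2-fold and 64.2% of those by 1.5-fold, with 10 false calls among 177. These rates need not hold for the data, where 53.4% of genes were called, a far larger share than was altered. The simulation also held no alteration smaller than 1.5-fold. Gene lengths, overlaps and shared windows came from GENCODE M21, promoter windows from RefSeq (GRCm38.p6). Alternatives were relative log expression factors, library size alone, at least 10 counts in every sample, DESeq2 1.42.0, limma-voom (limma 3.58.1), the replicate number as a block, a prior count of 0.5, a 2-fold requirement and fits without each single mouse.

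The genes, the lists and the tests were chosen with earlier results of these data known. Named were the 10 genes, in each pathway list up to 3 called genes with the largest rise and up to 3 with the largest fall, a fixed set of 12 pathway genes, and the most abundant marker of each cell type list where used. Tmsb4x and Prps2 were named as the nearest tested neighbours of Tlr8 and Tlr7, and Itgax because it encodes CD11c. Aldh3b1, Acy3, Trim32 and Cdk5rap2 were named as those of Unc93b1 and Tlr4. The nearest tested neighbours of the remaining receptors were named in the same way. Lbp was named as the gene of its list that was not called.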

Additional observations from a re-analysis of the deposited data

Results flagged for a closer look

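Dixon's criterion, applied to 66 sets of 4 values, singled out 2, where chance at 1 in 20 gives 3.3. Both were B6.SLE123 replicate 1. Its log2 ratio of Tlr1 to Tlr6 was 2.35, where the other B6.SLE123 mice were between 2.54 and 2.57. Its summed level of adaptors and kinases was 11.2 on the log2 CPM scale, where the others were all at 11.3.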

How the results depend on the processing

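The count of 8 called genes among the 10 was 8 with relative log expression factors, library size alone, a minimum of 10 counts in each sample, the replicate block, DESeq2 and limma-voom, and between 7 and 8 when single mice were left out. With a more than 2-fold change required it was 2, and the count over all genes was 1524 against 7356, by the construction of that requirement. Without single mice, the pathway genes called were between 32 and 37, the marker genes between 68 and 79 and all genes between 6496 and 7013. Over 14 alternatives, 135 of 140 fold changes of the 10 genes had an unchanged sign and an unchanged call. The exceptions were the 3 fits without a mouse given for Tlr1, and Tlr12, whose log2 fold change was between -0.20 and 0.036 without single mice and turned to 0.035 without B6.SLE123 replicate 3 and 0.036 without B6.SLE123 replicate 4. Tlr4 stayed between -1.86 and -1.67, Tlr8 between -2.03 and -1.77, Tlr7 between -0.84 and -0.70 and Tlr9 between 0.15 and 0.22. Of the other named genes, 652 of 672 values were kept, and Gzma, an NK cell marker between -0.35 and 0.30 without single mice, reversed to 0.30 without C57BL/6 replicate 1 and to 0.09 and 0.05 without B6.SLE123 replicates 3 and 4. Left-out fits also lost the calls of Ikbke, Pik3r1 and Cnpy4 (5, 5 and 3 fits of 8), and some made Slc15a4, Traf6 and Cd4 pass.

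The log2 difference of the ratio of Tlr7 to Tlr9 was between -0.99 and -0.91 without a mouse, that of Tlr7 to Unc93b1 between -0.46 and -0.36, that of Tlr9 to Unc93b1 between 0.51 and 0.58 and that of Tlr1 to Tlr6 between 0.03 and 0.11. With the replicate number as a block, the differences of -0.95, -0.41 and 0.54 were the same but the adjusted p was 0.167, since the smallest p that 4 pairs allow is 0.125. The block gave 39 pathway genes, 76 marker genes and 7183 genes in all, and among the named genes it changed the call of Cd4 alone, a T cell marker. Whether the numbers pair the mice was not settled. Deviations of same-numbered mice correlated at 0.024, 0.071, -0.029 and 0.12. Mice numbered 2 and 4 correlated best with their own number, and those numbered 1 and 3 did not. At 401 or more reads per gene and mouse, depth limited none of these 10 comparisons.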
